A study of Mus musculus with 21 samples.

Results

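Oxidative phosphorylation subunit genes were followed in mouse acute myeloid leukaemia cells, in which the histone enzymes Ezh2 and Kdm5b had been inhibited, depleted or overexpressed. The genes were chosen by symbol alone: those starting with Ndufa, Ndufb, Ndufc, Ndufs, Ndufv, Uqcr, Cox4i, Cox5, Cox6, Cox7, Cox8 or Atp5, together with Sdha, Sdhb, Sdhc, Sdhd and Cyc1, leaving out assembly factors starting with Ndufaf and pseudogene symbols. The rule found 80 genes: 79 of the 14178 genes in the inhibitor table, 80 of 15623 in the knockdown table and 80 of 13949 in the overexpression table. They comprised 36 subunits of complex I, 4 of complex II, 9 of complex III, 14 of complex IV and 15 of complex V, plus Atp5s and Atp5sl, which were kept for their symbols only. The 80 genes lay on 19 chromosomes. Subunits encoded by the mitochondrial genome, and the alternative forms Cox4i2, Cox6b2, Cox7b2, Cox8b, Cox8c and Ndufa4l2, were not analysed here.

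The RNA-seq study held 21 libraries in 8 groups, made from established mouse leukaemia lines that carry a flag-tagged fusion oncogene. Lines transformed by NUP98-NSD1 gave 15 libraries. In the inhibitor experiment these cells received 3 µM UNC1999 for 4 days (n = 3), 3 µM JQEZ5 for 4 days (n = 3) or DMSO, the solvent (n = 3). UNC1999 and JQEZ5 are small-molecule inhibitors of Ezh2, the enzyme that methylates lysine 27 of histone H3, and UNC1999 also blocks its relative Ezh1. In the knockdown experiment NUP98-NSD1 cells carried a pLKO.1-puro lentivirus with a hairpin against Kdm5b (shKdm5b, n = 3) or the empty vector (shEV, n = 3) and were selected with puromycin. Kdm5b is a demethylase of lysine 4 of histone H3. Lines transformed by MLL-AF9 gave the other 6 libraries: they carried an MSCV-neo retrovirus with wild-type Kdm5b (WT, n = 2), with the demethylase-dead mutant H499A (n = 2) or with no insert (EV, n = 2). The labels do not say whether replicates were separate cultures, so the p-values below measure the spread between libraries, which may be technical. The labels name a pair of library kits without saying which was used for which library.

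Oxidative phosphorylation is carried out in the inner mitochondrial membrane. Complexes I and II pass electrons from NADH and succinate to ubiquinone, complex III hands them on to cytochrome c, and complex IV gives them to oxygen. Complexes I, III and IV pump protons as they do so, and complex V, the ATP synthase, lets the protons back through its membrane ring to drive ATP synthesis in its F1 head. Acute myeloid leukaemia cells, stem-like ones in particular, are known to rely on this pathway.

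The deposited values were log2 values after DESeq2's variance-stabilising transformation, which the text gives back as normalised counts, that is, reads per gene divided by a size factor for the library. Log2 differences and their standard errors (SE) below are on the deposited scale, which shrinks differences of low genes. A gene is called when limma's test across all genes of its table gave an adjusted p under 0.05 (Benjamini-Hochberg). Library totals were 12812646 to 18928764 reads in the inhibitor experiment, 21273211 to 34813867 in the knockdown and 17341257 to 19973218 in the overexpression experiment. Kdm5b itself followed the labels in the knockdown, with 34.1, 28.8 and 23.2 normalised counts in shKdm5b libraries against 61.6, 94.8 and 67.0 in shEV libraries. These values are low: only shEV replicate 2 was above the filter for testing (86.6 normalised counts), so Kdm5b was not tested in the knockdown. Kdm5b also followed the labels in the overexpression experiment, with 1410 and 1416 in WT libraries, 309 and 279 in H499A libraries and 114 and 128 in EV libraries. All 14 myeloid markers were listed in every table, and none of 8 lymphoid markers was. Of 7 erythroid markers, 1, 1 and 2 were listed in the inhibitor, knockdown and overexpression tables, with sums of at most 25.5 normalised counts per library. Of 7 stromal and endothelial markers, 3, 1 and 2 were listed, with sums of 842 to 1370, 3789 to 4558 and 3796 to 5764.

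Member genes were abundant in every control group. Per kilobase of transcript, the median subunit of complex V stood at 2907 normalised counts in DMSO libraries, 8264 in shEV and 4507 in EV, and the median subunit of complex I at 963, 2836 and 1615. The tables were normalised separately, so these levels can be ordered within a table and not across tables. The highest and lowest member of each complex were taken by the geometric mean over the 3 control groups, among members tested in every table, so other members can be lower or higher in 1 table. By that measure Ndufa6, an accessory subunit, was highest in complex I (3699 per kilobase in DMSO, 4656 in shEV, 3065 in EV) and Ndufb4, another accessory subunit, lowest (97.7, 329 and 201). In complex II the membrane anchor Sdhd was highest (2755, 8521 and 2953) and the other anchor, Sdhc, lowest (1139, 3239 and 1163). In complex III the hinge protein Uqcrh led (6451, 11188 and 4649) and the Rieske iron-sulfur protein Uqcrfs1 was lowest (1516, 3766 and 1686), although Cyc1, Uqcrb and Uqcrc2 were lower in DMSO libraries. In complex IV Cox4i1, the ubiquitous form of subunit 4, led (9864, 24610.4 and 10774) and Cox7b was lowest (1941, 6712 and 2847). Within single tables the lowest tested complex IV members were Cox7a1 in DMSO libraries (270.7), Cox6a2 in shEV (48.2) and Cox7a2 in EV (2831). In complex V Atp5b, the catalytic beta subunit, led (7813, 30385 and 15050.0) and Atp5g1, 1 of 3 genes for the same c-ring protein, was lowest (171, 820.4 and 849), although Atp5g2 was at 197 in shEV libraries and also lower than Atp5g1 in DMSO libraries. Atp5g1 shares 57.6% of its 31-base words with the pseudogene Gm10039, so part of its reads may have been given to that copy. Without scaling to length, Atp5g1 had 2270 normalised counts in EV libraries, above Atp5k (1559) and Atp5l (1571). Its rank in EV libraries thus depends on transcript length. In DMSO and shEV libraries it was below Atp5k and Atp5l without that scaling too.

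All members together took 0.875%, 0.861% and 0.888% of normalised counts in UNC1999 libraries, 0.991%, 0.957% and 0.986% in JQEZ5 libraries and 1.00%, 1.01% and 1.01% in DMSO libraries. Every UNC1999 library was below every other library of that table. In the knockdown the share was 1.69%, 1.51% and 1.49% in shKdm5b libraries against 1.61%, 1.58% and 1.60% in shEV libraries, so the 3 shKdm5b libraries lay on both sides of the controls. In the overexpression experiment the share was 1.18% and 1.22% in WT libraries, 1.27% and 1.26% in H499A libraries and 1.23% and 1.23% in EV libraries. In bulk RNA of this kind, fewer cells of a type and less RNA per cell cannot be told apart. shKdm5b replicate 1 stood apart from the other shKdm5b libraries: the median member lay 0.11 above the shEV mean on the log2 scale in replicate 1, and 0.09 and 0.10 below it in replicates 2 and 3 (values of -0.09 and -0.10). Other genes with transcripts of at most 1 kilobase moved in the same way in these libraries, with medians of 0.10, -0.05 and -0.06. In UNC1999 libraries the member medians were -0.12, -0.15 and -0.10, against -0.03, -0.04 and -0.03 for the other short genes.

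**Figure D1:**
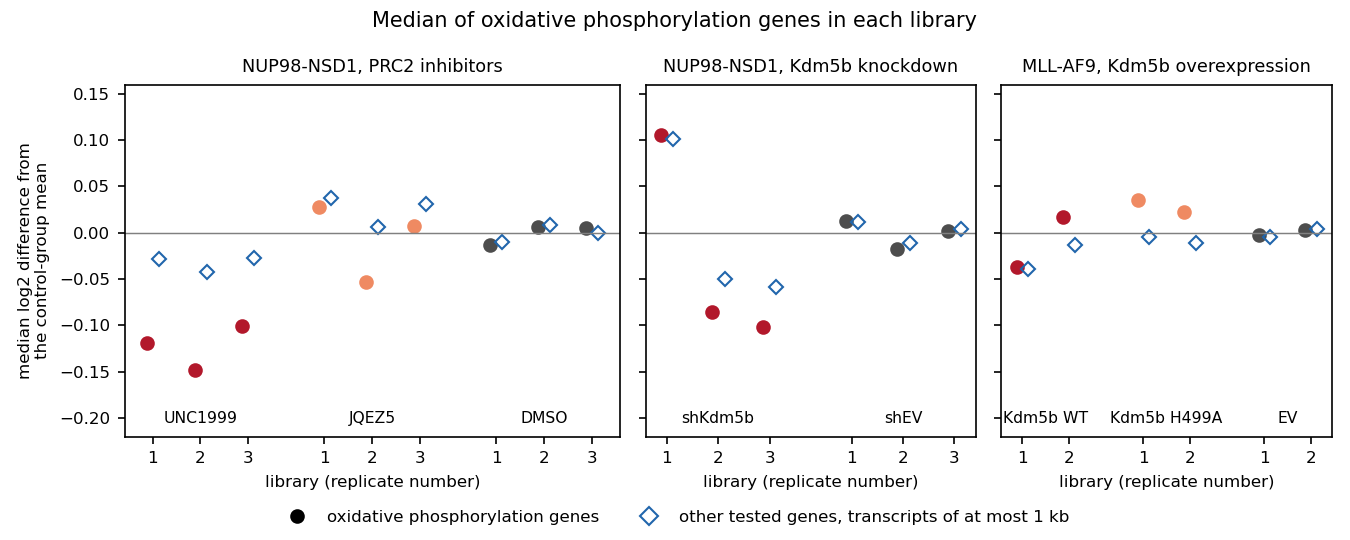
Median log2 difference from the mean of the control group, per library, in the inhibitor, knockdown and overexpression experiments (filled circles: oxidative phosphorylation subunit genes; open diamonds: other genes with transcripts of at most 1 kilobase). The 3 UNC1999 libraries sit at -0.12, -0.15 and -0.10 for the members, while shKdm5b replicate 1 sits at 0.11 and the other 2 shKdm5b libraries at -0.09 and -0.10.

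The first comparison asked how the members differed in UNC1999-treated cells from cells given DMSO. Many subunits of complexes I, III, IV and V were lower in UNC1999 libraries, by modest amounts, and complexes III, IV and V held the highest shares of lower genes. In complex II, 1 of 4 subunits was lower, a share near that of all tested genes. Of 78 members tested, 46 (59.0%) were lower and 2 were higher, where 24% of all 10694 tested genes were lower and 23.9% higher. Leaving out UNC1999 replicate 1, UNC1999 replicate 3 or DMSO replicate 3 left 1 higher member. The median member differed by -0.12, the median of all tested genes by -0.01, and 74 of the 78 members were below 0. Atp5sl, counted with no complex, was among the lower genes (-0.15). The share of lower genes among members is thus above the background, and the share of higher genes below it.

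In complex I, 17 of 36 subunits were lower and 1 was higher, with a median of -0.10. Of the 7 core subunits, which carry the flavin, the iron-sulfur clusters and the ubiquinone site, 5 were lower, among them Ndufs8, Ndufv1 and Ndufv2. Ndufv1, which binds NADH and the flavin, averaged 979.97 ± 20.1 normalised counts in UNC1999 libraries and 1149.9 ± 18.5 in DMSO libraries (SD, n = 3 each), a log2 difference of -0.19 ± 0.040 (SE, limma adjusted p = 0.000879). Among the 29 accessory subunits, 12 were lower. The largest difference was that of Ndufa12, an accessory subunit of the matrix arm, with 284, 233 and 197 normalised counts in UNC1999 libraries against 363, 334 and 318 in DMSO libraries. The groups did not overlap, and the log2 difference was -0.32 ± 0.070 (SE, limma adjusted p = 0.00156). Ndufa12 (chr10:94198720-94221443, plus strand) shares 29.3% of its 31-base words with Gm15920. Its share of the reads of both genes was 48.0 ± 8.17% in UNC1999 libraries, 58.8 ± 2.65% in JQEZ5 libraries and 52.9 ± 3.45% in DMSO libraries (SD, n = 3 each). With the reads of both genes summed, the log2 difference between UNC1999 and DMSO by voom on counts was -0.36, against -0.50 for Ndufa12 alone, and Ndufa12 was called both ways. Ndufa7 was the higher subunit of complex I, with 834, 770.3 and 900.0 normalised counts in UNC1999 libraries against 725, 789 and 664 in DMSO libraries, so the groups overlapped (log2 difference 0.16 ± 0.057 SE, limma adjusted p = 0.032). That call was lost in 7 of 19 alternative analyses.

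Complex II, which is also an enzyme of the citric acid cycle, differed in 1 of its 4 subunits. Sdhd, which anchors the enzyme in the membrane, had 2928, 2754 and 2929 normalised counts in UNC1999 libraries against 3339.7, 3489.7 and 3347 in DMSO libraries. All UNC1999 values were lower, with a log2 difference of -0.22 ± 0.032 (SE, limma adjusted p = 3.08e-05). The other anchor, Sdhc, had 2377, 2344 and 2478 in UNC1999 libraries and 2395, 2157 and 2256 in DMSO libraries, and was not called (0.07, 95% interval 0.00 to 0.15). The flavoprotein Sdha differed by -0.07 (interval -0.13 to -0.01, limma adjusted p = 0.0687) and the iron-sulfur subunit Sdhb by -0.06 (limma adjusted p = 0.248), and neither was called.

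Complex III had 7 of 9 subunits lower and none higher, with a median of -0.18. Its 4 core subunits were all among them: Uqcrc1, Uqcrc2, Uqcrfs1 and Cyc1. Cyc1 is cytochrome c1, the haem protein that delivers electrons to cytochrome c, and its gene lies at chr15:76343523-76346260 (plus strand). It had 1652, 1679 and 1647 normalised counts in UNC1999 libraries against 2003, 2151 and 2169 in DMSO libraries. The groups were far apart relative to their spread (log2 difference -0.31 ± 0.040 SE, limma adjusted p = 1.03e-05). Uqcrq, a small subunit next to cytochrome b, had 896, 865 and 873 in UNC1999 libraries against 1079.7, 1149 and 1166 in DMSO libraries (-0.30 ± 0.049 SE, limma adjusted p = 0.000115). Uqcr10 and Uqcrb were the other lower subunits, at -0.27 and -0.13.

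Complex IV had 10 of 13 subunits lower and 1 higher, with a median of -0.17. Cox5a, a nuclear subunit on the matrix side, had the largest difference of all members. It had 1339, 1209.6 and 1283 normalised counts in UNC1999 libraries against 1638, 1651 and 1736 in DMSO libraries. No UNC1999 value reached a DMSO value, and the ratio of means was 0.762 (log2 difference -0.34 ± 0.038 SE, limma adjusted p = 2.35e-06). Cox4i1, which forms the enzyme's regulatory subunit 4, was called at -0.08 (limma adjusted p = 0.0382), a call lost in 7 of 19 alternative analyses. The muscle and heart form Cox7a1 had 92.8, 72.5 and 89.5 normalised counts in UNC1999 libraries against 109, 118 and 129.9 in DMSO libraries. It was called (-0.20, limma adjusted p = 0.0128), while the widely expressed Cox7a2 was not (-0.08, limma adjusted p = 0.0811). The Cox7a1 call was lost in 2 of 18 alternative analyses, and the difference between Cox7a1 and Cox7a2 was not tested. The higher gene was Cox7a2l, whose product links complexes III and IV in respiratory supercomplexes. Cox7a2l had 5981, 5961 and 6024 in UNC1999 libraries against 5174, 5135 and 5411 in DMSO libraries, with no overlap (0.19 ± 0.028 SE, ratio 1.14, limma adjusted p = 4.80e-05). It therefore ran against most of its complex.

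Complex V had 10 of 14 subunits lower and none higher, with a median of -0.12. In the F1 head, Atp5a1, Atp5b, Atp5c1 and Atp5d were lower and Atp5e was not called. Atp5b had 12876, 12738 and 13081 normalised counts in UNC1999 libraries against 14885, 15101 and 14923 in DMSO libraries. The ranges did not overlap, and the log2 difference was -0.21 ± 0.026 (SE, limma adjusted p = 7.7e-06). The c-ring genes Atp5g1 (-0.16) and Atp5g3 (-0.12), the membrane subunits Atp5j2 and Atp5l, and the peripheral stalk subunits Atp5h and Atp5o were also lower. The third c-ring gene, Atp5g2, passed no filter in this table, with 57.9, 12.3 and 44.1 in UNC1999 libraries against 43.4, 40.1 and 54.0 in DMSO libraries. Atp5g2 shares 100% of its 31-base words with Gm10175.

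**Figure D2:**
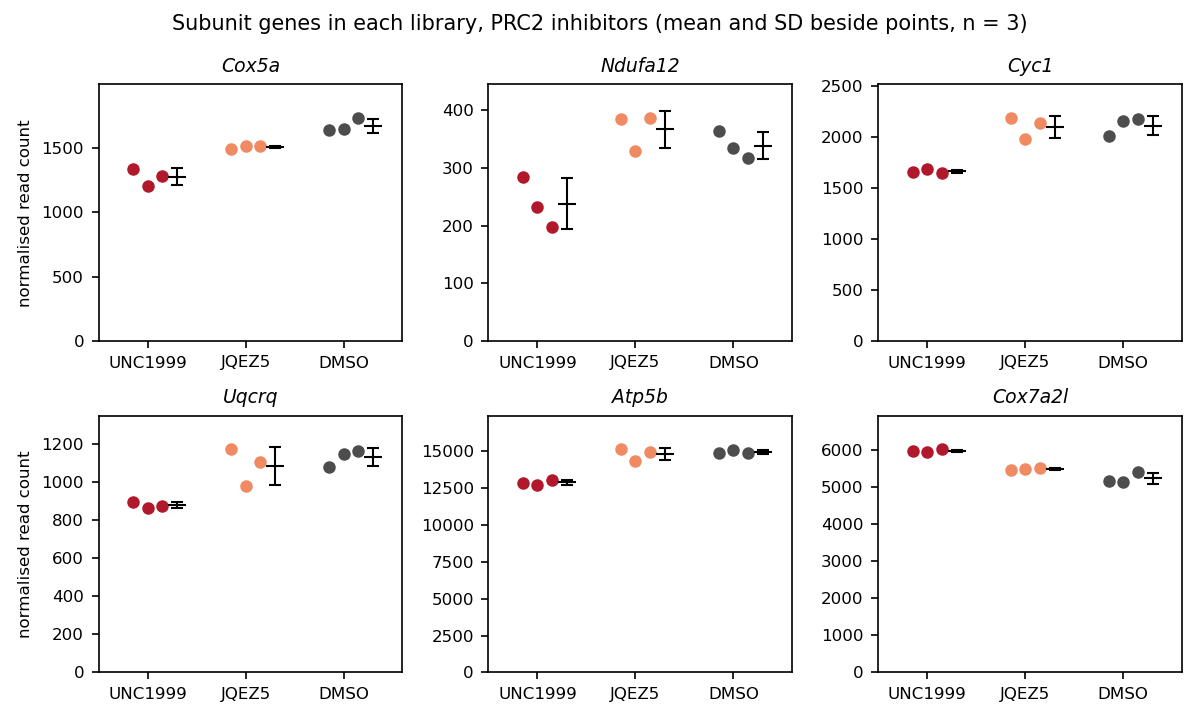
Normalised counts per library of Cox5a, Ndufa12, Cyc1, Uqcrq, Atp5b and Cox7a2l in UNC1999, JQEZ5 and DMSO libraries (points: libraries; bars: mean and SD, n = 3). Cox5a falls to 1339, 1209.6 and 1283 in UNC1999 libraries, with JQEZ5 libraries at 1497 to 1517 and DMSO libraries at 1638 to 1736, while Cox7a2l runs the other way.

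The lower calls were not confined to short transcripts: 26 of 49 members with transcripts of at most 1 kilobase (53.1%) and 19 of 28 longer ones (67.9%) were lower. Among other genes the shares were 26.6% and 24.1%. Cell state markers moved beside these results. The summed normalised counts of 15 cell-cycle genes were 32224 to 32560.4 in UNC1999 libraries, 40009 to 40711 in JQEZ5 libraries and 45591 to 46147 in DMSO libraries, and all 15 were lower in UNC1999 libraries. The summed monocyte and macrophage markers were 367763 to 382844 in UNC1999 libraries, 261117 to 264202 in JQEZ5 libraries and 143525 to 145602 in DMSO libraries. Their part in the result was not tested.

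Promoter sequence is shown for 5 members to set the binding motifs of nuclear factors known to act on these genes in mammals beside the calls. RefSeq windows (GRCm38.p6), which reach from upstream of the annotated start to just past it, were matched for 67 member genes. The motif of nuclear respiratory factor 1 (GCGCA and GCGC with any 1 base between them) was in 17 of them (25.4%), against 7.17% of 17492 protein-coding promoters. The ETS motif CCGGAAG was in 16 (23.9%, against 12.9%), the YY1 motif AAGATGGCG in 8 (11.9%, against 2.14%), the ERR motif TCAAGGTCA in Atp5g3 and Sdhd (2.99%, against 0.377%) and the E-box CACGTG in 7 (10.4%, against 8.91%). Both strands were searched. Among members that were tested, 9 of 16 with the first motif were lower in UNC1999 libraries and 28 of 50 without it. The stretches are the 120 bases before the start, on the minus strand: chr9:50603850-50603969 for Sdhd, chr5:115348959-115349078 for Cox6a1, chr2:36049339-36049458 for Ndufa8, chr7:30626115-30626234 for Cox6b1 and chr17:83514334-83514453 for Cox7a2l. The first 4 are the largest of the lower genes whose stretch holds either of the first 2 motifs, and Cox7a2l is the member with the largest positive difference. Capitals mark a match to either motif or its reverse complement.
Sdhd: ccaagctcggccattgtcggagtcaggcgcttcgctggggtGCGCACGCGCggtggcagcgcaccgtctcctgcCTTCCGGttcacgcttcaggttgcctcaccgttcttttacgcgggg
Cox6a1: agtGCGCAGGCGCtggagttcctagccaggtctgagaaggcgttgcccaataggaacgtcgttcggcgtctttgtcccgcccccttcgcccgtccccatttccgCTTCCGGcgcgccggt
Ndufa8: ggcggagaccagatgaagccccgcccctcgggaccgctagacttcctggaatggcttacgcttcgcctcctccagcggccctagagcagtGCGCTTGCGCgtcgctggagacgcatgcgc
Cox6b1: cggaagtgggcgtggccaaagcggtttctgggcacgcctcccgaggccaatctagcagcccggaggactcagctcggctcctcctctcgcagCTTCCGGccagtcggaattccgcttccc
Cox7a2l: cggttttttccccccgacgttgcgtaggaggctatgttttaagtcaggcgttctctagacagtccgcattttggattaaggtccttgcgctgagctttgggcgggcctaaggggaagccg
Sdhd and Cox6a1 carry both motifs, Ndufa8 carries the first, Cox6b1 the ETS motif and Cox7a2l neither. Ndufa8, an accessory subunit of complex I, was lower in UNC1999 libraries by a log2 difference of -0.16 (limma adjusted p = 0.0074). Cox6a1 and Cox6b1, accessory subunits of complex IV, differed by -0.17 (limma adjusted p = 0.0281) and -0.14 (limma adjusted p = 0.00259), and the Cox6a1 libraries of both groups overlapped.

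JQEZ5 and DMSO libraries differed in few members. JQEZ5 was given at the same dose and time as UNC1999, and both comparisons use the same DMSO libraries. Of 78 members tested, 5 were lower, where 10.5% of all tested genes were lower, and none was higher, where 13.1% were. The count of lower members, 6.41%, is below that background. At an unadjusted p under 0.05, 4 members were higher and 9 lower by limma, and voom on counts also called 0 higher. Without DMSO replicate 1 there was 1 higher member, and without UNC1999 replicate 3, which enters the shared estimate of the spread, there were 2. The median member differed by -0.01 and the median of all genes by 0.01.

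The lower genes included Ndufv3 and Ndufa3 of complex I, Cox5a of complex IV and Atp5sl. Ndufv3, an accessory subunit of the NADH-binding module, had 2076, 2018 and 2099 normalised counts in JQEZ5 libraries against 2418, 2435 and 2381 in DMSO libraries. The groups did not overlap (log2 difference -0.20 ± 0.039 SE, limma adjusted p = 0.00128), and this call held in all 19 alternative analyses. Ndufv3 had 2115, 1975 and 2251 in UNC1999 libraries, at the level of the JQEZ5 libraries. Cox5a had 1497, 1517 and 1514 in JQEZ5 libraries, between the UNC1999 and the DMSO libraries (-0.13 ± 0.038 SE against DMSO, limma adjusted p = 0.0201). The small accessory subunit Ndufa3 had 510.3, 443 and 494 in JQEZ5 libraries against 559, 568 and 532 in DMSO libraries (-0.14 ± 0.049 SE, limma adjusted p = 0.0466). Atp5sl had 310.4, 307 and 296 in JQEZ5 libraries against 343, 379.7 and 347 in DMSO libraries (-0.15 ± 0.048 SE, limma adjusted p = 0.0393). The calls of Cox5a, Ndufa3 and Atp5sl were each lost in 3 to 9 of 19 alternative analyses, and leaving out JQEZ5 replicate 3 left 1 lower member, while leaving out JQEZ5 replicate 2, DMSO replicate 2 or DMSO replicate 3 left 2.

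Cox5a, with the largest difference for UNC1999, was thus also lower with JQEZ5, while the next 3 members by that difference, Ndufa12, Cyc1 and Uqcrq, were not called for JQEZ5. Cyc1 had 2183, 1975 and 2129 normalised counts in JQEZ5 libraries, a log2 difference of -0.01 from DMSO with a 95% interval of -0.09 to 0.08. Ndufa12 had 384, 329 and 386, Uqcrq 1172, 979 and 1104, and Atp5b 15134, 14381 and 14946, and none of these was called against DMSO.

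**Figure D3:**
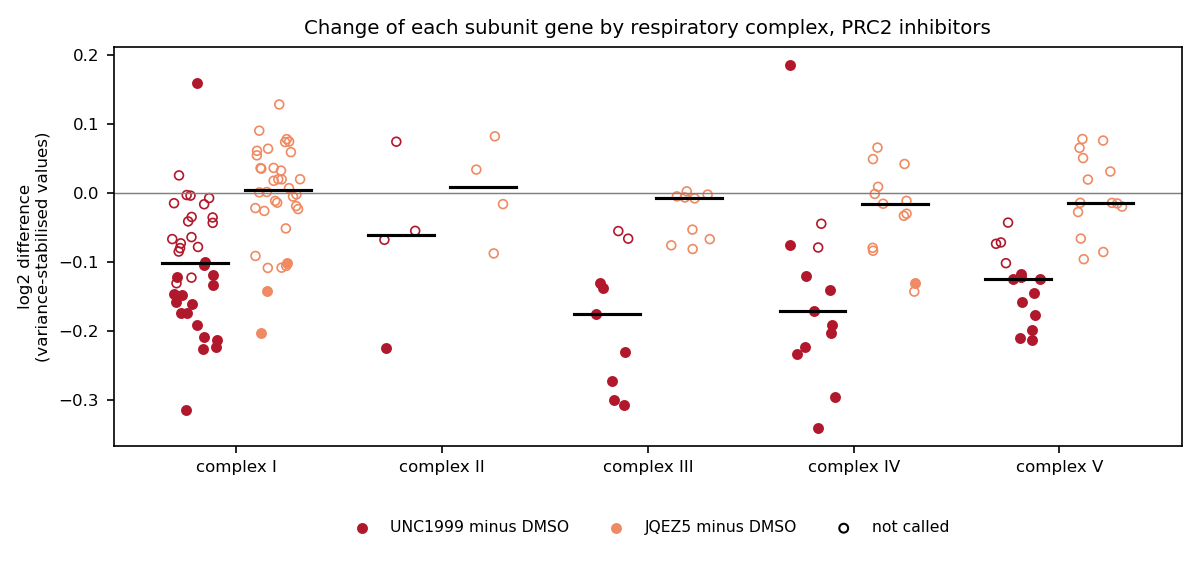
Log2 difference of each member, UNC1999 minus DMSO and JQEZ5 minus DMSO, by respiratory complex (filled: called; open: not called; bars: medians). Most complex III, IV and V members lie below 0 for UNC1999, with a median of -0.12 over all members, and close to 0 for JQEZ5, with a median of -0.01.

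The direct comparison of both inhibitors gave 41 of 78 members lower and 2 higher in UNC1999 than in JQEZ5 libraries, where 17.7% of all tested genes were lower and 18.7% higher. The median member differed by -0.11 and the median of all genes by 0.00. By complex, 15 of 36 subunits of complex I, 1 of 4 of complex II (Sdhd), 6 of 9 of complex III, 11 of 13 of complex IV and 8 of 14 of complex V were lower. The largest differences were those of Ndufa12 (-0.39 ± 0.070 SE, limma adjusted p = 0.000464), Cyc1 (-0.30, limma adjusted p = 2.89e-05), the accessory complex I subunit Ndufb8 and Uqcrq (-0.25 each). The share of Ndufa12 in its reads with Gm15920 was 48.0 ± 8.17% in UNC1999 and 58.8 ± 2.65% in JQEZ5 libraries (SD, n = 3 each), and with the reads of both summed the difference for Ndufa12 by voom was -0.33, against -0.61 alone. Ndufb8 had 1191, 1179 and 1021 normalised counts in UNC1999 libraries against 1401, 1266 and 1485 in JQEZ5 libraries, without overlap (limma adjusted p = 0.00264). The higher members were Ndufa7 (0.17 ± 0.057 SE, limma adjusted p = 0.0293) and Cox7a2l (0.12, limma adjusted p = 0.0032), and 1 of them was left without UNC1999 replicate 1 or 3 or JQEZ5 replicate 2 or 3. Cox7a2l had 5981, 5961 and 6024 in UNC1999 libraries against 5468, 5497 and 5516 in JQEZ5 libraries.

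The knockdown comparison asked how the members differed with less Kdm5b in NUP98-NSD1 cells. A handful of members passed the test: 5 of 80 were lower, from complexes I, II and V, and 3 were higher, among them the muscle form of a complex IV subunit. These counts (6.25% and 3.75%) are below the background of 17.4% lower and 15% higher among all 10810 tested genes. The higher count includes the muscle form, Cox6a2, which passed the filter on low values through the shKdm5b libraries alone. The median member differed by -0.04 and the median of all genes by -0.01. The lower count rests on single libraries: without shKdm5b replicate 1, 41 members were lower and 4 higher, where 27.7% of all genes were lower and 23.7% higher. Leaving out any 1 shEV library left 1 lower member, without shKdm5b replicate 2 there were 2 and without replicate 3 there were 3. Higher members numbered 1 without shEV replicate 1 or 2 and 7 without shKdm5b replicate 3.

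Ndufs8, a core subunit of complex I that carries iron-sulfur clusters, had 3267, 2609.8 and 2541 normalised counts in shKdm5b libraries against 3634, 3685 and 3515 in shEV libraries. All 3 shKdm5b values were lower, with replicate 1 nearest to the controls (log2 difference -0.34 ± 0.079 SE, limma adjusted p = 0.0121). It was the lower call that held in all 16 alternative analyses. Ndufa8 had 2195, 1682 and 1761 in shKdm5b libraries against 2315, 2403 and 2326 in shEV libraries (-0.29 ± 0.078 SE, limma adjusted p = 0.0228). Ndufa3 had 1259, 1168 and 1103 in shKdm5b libraries against 1385, 1348 and 1376 in shEV libraries (-0.18 ± 0.048 SE, limma adjusted p = 0.0215). Neither overlapped its controls. Atp5f1, subunit b of the peripheral stalk of complex V, had 10772, 9570.4 and 8476 in shKdm5b libraries against 11846, 11422 and 11504 in shEV libraries (-0.27 ± 0.076 SE, limma adjusted p = 0.0254). Atp5f1 shares 28.9% of its 31-base words with Gm12231. In complex II, Sdha, the succinate-oxidising flavoprotein, had 11098, 10743 and 10708 in shKdm5b libraries against 12270.2, 11935 and 12142 in shEV libraries (-0.15 ± 0.040 SE, limma adjusted p = 0.0183). The other subunits of complex II were not called: Sdhb differed by -0.15 (limma adjusted p = 0.0946), Sdhc by 0.07 and Sdhd by 0.03.

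Cox6a2, the striated muscle form of complex IV subunit 6a, had 185, 161 and 219.8 normalised counts in shKdm5b libraries against 38.2, 34.7 and 25.5 in shEV libraries. The groups did not overlap, and the ratio of means was 5.76 (log2 difference on the deposited scale 0.82). Cox6a2 passed the filter on low values (86.6 normalised counts) through the shKdm5b libraries alone, so its call is not independent of that filter. The ubiquitous form Cox6a1 had 12514, 10274 and 10236 in shKdm5b libraries against 11528, 11322 and 11374 in shEV libraries and was not called. Per kilobase, Cox6a2 made up 1.43 ± 0.294% of the reads of both forms in shKdm5b libraries and 0.241 ± 0.0469% in shEV libraries (SD, n = 3 each). Cox6a2 (chr7:128205435-128206387, minus strand) overlaps an exon of Itgad on the other strand, and Itgad was not among the genes of this table. Cox6a2 had no row in the inhibitor table and was at or below 29.6 normalised counts in the overexpression table. The other higher members were Ndufa4, a complex IV subunit once counted with complex I, and Uqcrb of complex III. Ndufa4 had 12452, 11271 and 10809 in shKdm5b libraries against 10019.8, 9416 and 10181 in shEV libraries (0.21 ± 0.059 SE, limma adjusted p = 0.0239). Uqcrb had 3371, 3292 and 3339 against 2968, 2855 and 3069 in shEV libraries (0.15 ± 0.041 SE, limma adjusted p = 0.0205), and it shares 54.3% of its 31-base words with Gm16089.

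**Figure D4:**
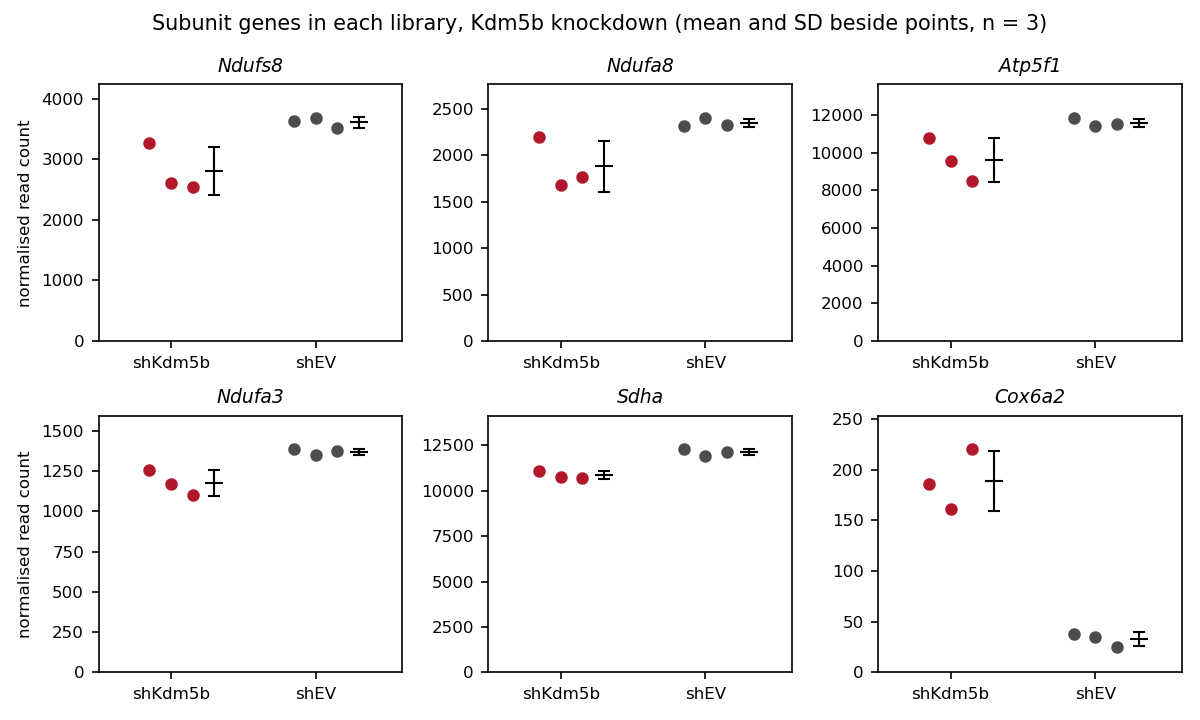
Normalised counts per library of Ndufs8, Ndufa8, Atp5f1, Ndufa3, Sdha and Cox6a2 in shKdm5b and shEV libraries (points: libraries; bars: mean and SD, n = 3). shKdm5b replicate 1 lies nearest to the shEV libraries for Ndufs8 (3267) and Atp5f1 (10772), whereas Cox6a2 is at 161 to 219.8 in all shKdm5b libraries against 25.5 to 38.2 in shEV libraries.

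Without shKdm5b replicate 1, an alternative that leaves 2 libraries against 3, the lower members were 20 of 36 in complex I, 2 of 4 in complex II (Sdha and Sdhb), 4 of 9 in complex III, 6 of 14 in complex IV and 9 of 15 in complex V. All 5 members lower with every library remained lower. Replicate 1 was the shKdm5b library whose median member lay above the shEV mean, so leaving it out favours lower calls. These counts and the 5 retained calls are therefore no separate support. The members lower in complex III were Uqcrc1, Uqcr10, Uqcr11 and Cyc1, and Cyc1 had 9423, 8589 and 8005 normalised counts in shKdm5b libraries against 9747, 9596 and 9514 in shEV libraries. The 4 higher members were Cox6a2, Ndufa4, Cox6c and Uqcrb. Of 76 members tested in every table, none was called in the same direction for UNC1999, JQEZ5 and the knockdown. JQEZ5 and the knockdown had 5 lower members each, so this count could only be small. The same count over all genes was not made. Ndufa3 was lower with JQEZ5 and in the knockdown, and was not called for UNC1999 (-0.07, limma adjusted p = 0.238).

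In MLL-AF9 cells, wild-type Kdm5b was set against the empty vector. All subunits of complex II and most of complex V were lower, and complex IV had 4 of 12 higher and 1 lower. Of 77 members tested, 23 were lower (29.9%) and 9 higher (11.7%), where 32.4% of all 9458 tested genes were lower and 29.8% higher. The lower share is close to the background and the higher share below it, and the medians of members and of all genes were both -0.01. The split changed with the scaling: with counts scaled per total count, 15 were lower and 17 higher. Leaving out EV replicate 1 gave 13 lower and 4 higher members, and leaving out WT replicate 1 or 2 gave 14 or 5 higher.

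Complex V had 10 of 15 subunits lower and none higher, with a median of -0.09. They came from the F1 head (Atp5a1, Atp5b, Atp5c1 and Atp5e), the c ring (Atp5g2 and Atp5g3), the peripheral stalk (Atp5f1 and Atp5j) and the membrane part (Atp5j2 and Atp5k). The Atp5g2 call was lost in 3 of 16 alternative analyses. Atp5b had 24049.8 and 24472 normalised counts in WT libraries, 29477 and 29329 in H499A libraries and 28821 and 28850.3 in EV libraries. WT libraries were thus below both other groups, which lay close together (WT against EV -0.24 ± 0.022 SE, limma adjusted p = 2.46e-10). Atp5a1, the alpha subunit, had 21583 and 21798 in WT libraries, 25377 and 25229 in H499A libraries and 24891 and 24699 in EV libraries (WT against EV -0.19 ± 0.021 SE, limma adjusted p = 2.63e-08). Both calls held in all 16 alternative analyses. All 3 c-ring genes were tested in these cells. Atp5g3 made up 54.8 ± 1.32% of their reads in WT libraries, 57.1 ± 0.568% in H499A libraries and 56.3 ± 1.30% in EV libraries (SD, n = 2 each), without scaling to transcript length. Atp5g2 took 52.4% of the reads of Atp5g2 and Gm10175 in EV libraries, and Atp5g1 shares sequence with Gm10039. These shares therefore depend on how reads were assigned.

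All 4 subunits of complex II were lower in WT than in EV libraries. Sdhb, which carries the iron-sulfur clusters, had 2008 and 2119 normalised counts in WT libraries, 2368 and 2246 in H499A libraries and 2604 and 2579.7 in EV libraries. The 3 groups did not overlap, with WT lowest and H499A between (WT against EV -0.27 ± 0.030 SE, limma adjusted p = 1.7e-08). Sdha (-0.10, limma adjusted p = 0.00234), Sdhc (-0.08, limma adjusted p = 0.0135) and Sdhd (-0.06, limma adjusted p = 0.0451) differed by less. The Sdhd call was lost in 11 of 16 alternative analyses, the Sdhc call in 4 and the Sdha call in 2.

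Complex I had 6 lower and 3 higher subunits of 36. Ndufs1, Ndufs6, Ndufa9, Ndufab1, Ndufb2 and Ndufv3 were lower, and Ndufb9, Ndufa7 and Ndufa11 were higher. Ndufb9, an accessory subunit of the membrane arm, had 1858 and 1853 normalised counts in WT libraries, 1664 and 1672 in H499A libraries and 1500.1 and 1487 in EV libraries. The groups were in that order without overlap (WT against EV 0.24 ± 0.029 SE, limma adjusted p = 6.93e-08). Ndufb9 shares 25.5% of its 31-base words with Gm49356. Ndufa11, with 619.7 and 749.7 in WT libraries against 588 and 624 in EV libraries, overlapped its controls and lost its call in 7 of 16 alternative analyses. Complex III had Uqcr10 and Uqcrq higher, by 0.09 for Uqcrq, and Uqcrc2 (-0.12) and Uqcrb (-0.11) lower. In complex IV, Cox7a2l (0.15), Cox5a (0.11), Cox4i1 (0.10) and Cox6b1 (0.07) were higher and Cox7c (-0.16) lower. Cox7a2l had 3755 and 3892 in WT libraries, 3062 and 3012 in H499A libraries and 3363 and 3416 in EV libraries, so the 2 Kdm5b forms lay on opposite sides of the empty vector.

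**Figure D5:**
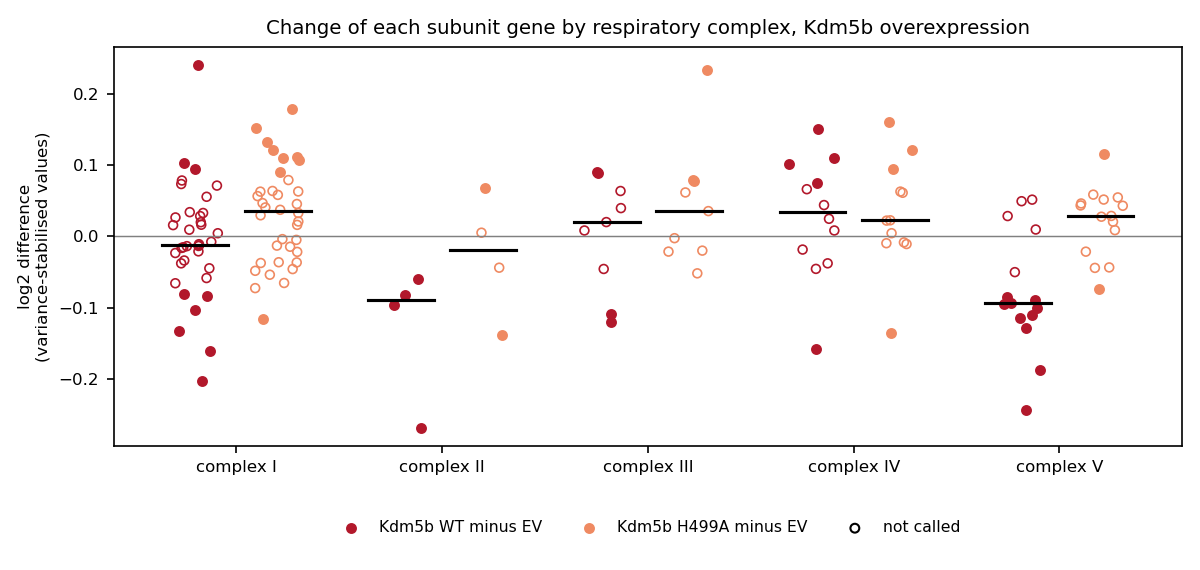
Log2 difference of each member in MLL-AF9 cells, WT minus EV and H499A minus EV, by respiratory complex (filled: called; open: not called; bars: medians). Complexes II and V have medians of -0.09 for WT, and the median over all members is -0.01 for WT and 0.03 for H499A.

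H499A, which lacks demethylase activity, was set against the same EV libraries. More members were higher than lower: 16 of 77 (20.8%) were higher and 5 (6.49%) lower, where 22.7% of all tested genes were higher and 26.9% lower. The higher share is close to the background and the lower share below it, and the median member differed by 0.03. In complex I, 8 accessory subunits were higher (Ndufv3, Ndufs4, Ndufa11, Ndufb9, Ndufa8, Ndufc1, Ndufa5 and Ndufb6) and Ndufs8 was lower (-0.12 ± 0.032 SE, limma adjusted p = 0.00343). Ndufv3 had 1286 and 1308 normalised counts in WT libraries, 1859.9 and 1821 in H499A libraries and 1602 and 1534 in EV libraries. It was thus higher with H499A (0.18 ± 0.030 SE, limma adjusted p = 2.17e-05) and lower with WT (-0.20 ± 0.030 SE, limma adjusted p = 2.22e-06). Ndufs4, an accessory subunit needed for complex I activity, had 872 and 922 in H499A libraries against 748 and 775 in EV libraries (0.15 ± 0.035 SE, limma adjusted p = 0.000794). Leaving out H499A replicate 1 gave 9 higher members and leaving out EV replicate 1 gave 10.

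In complex III, Cyc1 had 3343 and 3316 normalised counts in H499A libraries against 2720.2 and 2786 in EV libraries, the largest difference of this comparison among members (0.23 ± 0.031 SE, limma adjusted p = 4.71e-07). Uqcrc1 and Uqcr10 were also higher, by 0.08 each. In complex IV, Cox7a2 had 2127 and 2162 in H499A libraries against 1856 and 1875 in EV libraries (0.16 ± 0.028 SE, limma adjusted p = 3.53e-05). Cox5b (0.12) and Cox6c (0.09) were higher, and Cox7a2l was lower (-0.14 ± 0.026 SE, limma adjusted p = 0.000118). In complex II, Sdhd was higher (0.07, limma adjusted p = 0.0295, lost in 6 of 16 alternative analyses) and Sdhb lower (-0.14 ± 0.030 SE, limma adjusted p = 0.000367). Sdha (-0.04) and Sdhc (0.01) were not called. In complex V, Atp5o of the stalk was higher (0.12) and Atp5e of the F1 head lower (-0.07, limma adjusted p = 0.0363, likewise lost in 6). Atp5b differed by 0.03 and Atp5a1 by 0.03, and neither was called (limma adjusted p = 0.302 and 0.281). Atp5sl was lower, with 454 and 472 normalised counts in H499A libraries against 545 and 573 in EV libraries (-0.15 ± 0.038 SE, limma adjusted p = 0.00197).

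WT against H499A compares the active with the catalytically dead protein, in cells that both carry a Kdm5b vector. Kdm5b itself stood at 1410 and 1416 normalised counts in WT libraries against 309 and 279 in H499A libraries. Demethylase activity and the amount of Kdm5b RNA thus differ together in this comparison and cannot be told apart. Of 77 members, 30 were lower in WT libraries (39.0%) and 9 higher (11.7%), where 26.3% of all tested genes were lower and 28.2% higher. The lower share is above the background and the higher share below it. The median member differed by -0.04 and the median of all genes by 0.01. Lower members were 10 of 36 in complex I, 3 of 4 in complex II (Sdhb, Sdhc and Sdhd), 5 of 9 in complex III (Uqcrc1, Uqcrc2, Uqcrfs1, Cyc1 and Uqcrb), 3 of 12 in complex IV (Cox7a2, Cox7c and Cox6c) and 9 of 15 in complex V. The largest were Ndufv3 (-0.38 ± 0.030 SE, ratio 0.705, limma adjusted p = 5.5e-11), Atp5b (-0.27 ± 0.022 SE, limma adjusted p = 5.14e-11), Atp5a1 (-0.22, limma adjusted p = 3.38e-09) and Cox7a2 (-0.21, limma adjusted p = 8.97e-07). The 9 higher members were Cox7a2l (0.29 ± 0.026 SE, ratio 1.26, limma adjusted p = 9.16e-10), Atp5sl (0.13), Ndufb9 (0.12), Cox5a (0.12), Cox4i1 (0.11), Atp5l (0.10), Uqcrh (0.09), Ndufa3 and Ndufs8. Without H499A replicate 1, 4 members were higher.

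Markers of cell state differed in the overexpression experiment too. Summed monocyte and macrophage markers were 69564 to 71843 normalised counts in WT libraries, 51630.0 to 51890.2 in H499A libraries and 27235 to 28433 in EV libraries. Summed cell-cycle genes were 93797 to 94671 in WT libraries, 102831 to 103257 in H499A libraries and 108777 to 109493 in EV libraries. In the knockdown the cell-cycle sums overlapped, at 151525 to 154104 in shKdm5b libraries and 152956 to 153752 in shEV libraries. The part of these markers in the members' differences was not tested.

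Genes that work beside the subunits were read from fixed lists, whose counts stand against the same backgrounds as the members'. Each list is given for some of the comparisons only, and its other counts are not reported here. Of 13 tested citric acid cycle genes, 11 were lower in UNC1999 than in DMSO libraries and none higher, with a median of -0.16, where 24% of all tested genes were lower and 23.9% higher. Fh1, fumarate hydratase, averaged 2450 ± 24.9 normalised counts in UNC1999 libraries and 3293 ± 65.3 in DMSO libraries (SD, n = 3 each, limma adjusted p = 2.04e-08). Of 76 mitochondrial ribosome proteins, 39 were lower with UNC1999 and 2 higher, and with JQEZ5 1 was lower and 4 higher, where 10.5% of all genes were lower and 13.1% higher. Among 15 complex I assembly factors, 6 were lower with UNC1999 and none with JQEZ5. In the knockdown, 24 of 76 mitochondrial ribosome proteins were lower and 1 higher, and 5 of 13 citric acid cycle genes were lower, where 17.4% of all genes were lower and 15% higher. In WT against EV libraries, 32 of 77 mitochondrial ribosome proteins were lower and 3 higher, and 6 of 8 electron and nucleotide carriers were lower and 1 higher, where 32.4% of all genes were lower and 29.8% higher. Cycs, the somatic cytochrome c that carries electrons between complexes III and IV, averaged 3662 ± 36.3 in WT libraries and 4784 ± 122 in EV libraries (SD, n = 2 each, limma adjusted p = 1.02e-11). In H499A against EV libraries 8 mitochondrial ribosome proteins were lower and 10 higher, where 26.9% of all genes were lower and 22.7% higher.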

How the data were processed

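Gene expression was measured by RNA-seq in 21 libraries of 8 groups, and 3 tables were deposited, normalised separately. Per the submitters' processing notes the tools were STAR 2.4.2, Salmon 0.1.19 and DESeq2 1.38.2, on mm10 and GRCm38.p4, and the deposited values are log2 values after variance stabilisation. Undoing that transformation gave normalised counts, and 100% of them were a whole number of reads times the worth of 1 read in their library (tolerance 0.05 reads), which yields the depth. Genes were tested when at least 1 log2 unit above the table's lowest value (59.0, 86.6 and 145 normalised counts in the inhibitor, knockdown and overexpression tables) in at least as many libraries as the smallest group holds: 78, 80 and 77 members of 10694, 10810 and 9458 genes. Untested were Atp5g2 in the inhibitor table and Atp5s, Cox6a2 and Cox7a1 in the overexpression table. limma 3.58.1 (R 4.3.3) fitted 1 mean per group with a trended empirical Bayes spread over all libraries of a table, with Benjamini-Hochberg adjustment over its genes and a threshold of 0.05. The fit was tested on simulated data.

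Genes are named by a rule: in each comparison the 4 called members with the largest difference in each direction, complex II, alternative isoforms, the highest and lowest of each complex, and members behind counts of 5 or fewer. A gene that this rule names but the text does not is counted and not reported here. Cox6b1 and Cox6a1 are also named for their promoters, and Ndufv1 as an example chosen after its values were seen. Members and lists were chosen with earlier results of these data known. Levels per kilobase use GENCODE M21 transcripts, which hold 79 of the 80 members. Of these, 31 share over 10% of their 31-base words with another gene's transcript, and 6 share over 50%. Alternatives were other filters, scalings, the spread estimate, a replicate block, counts with voom, and leaving out each library. Same-numbered libraries did not deviate together (correlations -0.0811 to 0.160 in the inhibitor table, -0.151 to 0.223 in the knockdown and -0.0542 to -0.0114 in the overexpression table), so the numbers were not used to pair libraries.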

Additional observations from a re-analysis of the deposited data

How the results depend on the processing

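Of 82 results for named genes, none changed direction under any alternative, and 31 lost their call in at least 1 of them. For UNC1999 against DMSO, lower members numbered 36 to 57 over all alternatives, and 36 to 47 when 1 library was left out, against 46. Higher members were 1 in place of 2 with quantile normalisation, without the trended spread and with voom per total count, and 1 to 2 when 1 library was left out. For JQEZ5 against DMSO, higher members were 1 in place of 0 with the filter at 2 log2 units and with only the groups compared, and 0 to 2 when 1 library was left out. Lower members were 8 in place of 5 with quantile normalisation and with voom per total count, 3 without the trended spread and with the replicate block, and 1 to 7 when 1 library was left out. For UNC1999 against JQEZ5, lower members numbered 28 to 51 (28 to 43 when 1 library was left out), and higher members were 1 in place of 2 without the trended spread and with voom per total count, and 1 to 2 when 1 library was left out. In the knockdown, lower members were 9 in place of 5 with the replicate block and 1 to 41 when 1 library was left out, and higher members 1 to 7 in place of 3. In WT against EV, voom per total count gave 17 higher and 15 lower members in place of 9 and 23, and leaving out 1 library gave 4 to 14 higher and 13 to 22 lower. H499A against EV had 9 to 22 higher members in place of 16, and WT against H499A 4 to 9 in place of 9. The causes were not tested.

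The replicate block rests on shared numbers alone. With it, higher and lower members were 2 and 45 for UNC1999 against DMSO, 0 and 3 for JQEZ5 against DMSO, 2 and 41 for UNC1999 against JQEZ5, 4 and 9 in the knockdown, 13 and 24 for WT against EV, 19 and 5 for H499A against EV, and 9 and 31 for WT against H499A. Voom per total count, and voom with each member's reads summed with those of the gene that shares most of its sequence, were chosen after seeing the data. The number of libraries, 2 or 3 per group, limits the precision, and depth limits it for members near the filter, such as Cox7a1, Cox6a2 and Atp5g2.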

Other observations

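Rows that share sequence with members took different parts of their reads in different experiments. Atp5g2 made up 2.99% of the reads of Atp5g2 and Gm10175 in UNC1999 libraries, 4.04% in JQEZ5 libraries and 3.67% in DMSO libraries, and 3.30% in shKdm5b and 3.54% in shEV libraries. In the MLL-AF9 libraries it made up 54.1% with WT, 53.0% with H499A and 52.4% with EV. Atp5g1 made up 32.1%, 33.6% and 30.8% of the reads of Atp5g1 and Gm10039 in UNC1999, JQEZ5 and DMSO libraries, 29.3% in shKdm5b and 30.6% in shEV libraries, and 82.8%, 83.2% and 82.5% in WT, H499A and EV libraries. Ndufa12 made up 48.0%, 58.8% and 52.9% of the reads of Ndufa12 and Gm15920 in UNC1999, JQEZ5 and DMSO libraries, 46.0% in shKdm5b and 45.8% in shEV libraries, and 78.7%, 81.4% and 81.3% in WT, H499A and EV libraries. Levels of these genes are thus not comparable between the NUP98-NSD1 and the MLL-AF9 tables. Kdm5b, which was not targeted in the inhibitor experiment, had 875, 903 and 880 normalised counts in UNC1999 libraries, 666, 658 and 649 in JQEZ5 libraries and 624, 595 and 604 in DMSO libraries.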
